A study of Mus musculus with 2 samples.

Results

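The genes of the cytosolic ribosomal proteins, the protein subunits of the ribosome that translates nuclear-encoded mRNA, were examined for open chromatin at their promoters in the mouse cerebral cortex. All protein-coding genes of the mm10 (GRCm38) annotation whose symbol begins with Rpl or Rps followed by a number, a or p were taken, without the 10 ribosomal protein S6 kinases that the same symbol pattern also holds. This gave 92 genes of 21755 protein-coding genes on chromosomes 1 to 19 and X. They were 43 large-subunit genes, 31 small-subunit genes, the 3 stalk genes Rplp0, Rplp1 and Rplp2, 7 paralogs of subunit genes, 7 retrocopies that the annotation lists as coding, and Rps19bp1, which encodes a binding partner of Rps19 and no subunit. The first 3 sets, 77 genes, are called the core genes here.

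Every cell builds ribosomes, and the subunit proteins are made in matched amounts, which places their genes among the most strongly transcribed housekeeping genes. Their mRNAs begin with a 5′ terminal oligopyrimidine tract, through which mTOR and Larp1 adjust their translation together. Ribosomal protein genes are also known for the small nucleolar RNA (snoRNA) genes in their introns and for the many processed pseudogenes that their mRNAs have left in the genome.

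Open chromatin was mapped by DNase-seq, in which DNase I cuts accessible DNA and the cut ends are sequenced. The tissue was the left cerebral cortex of 2 male mice of the strain B6CASTF1/J, an F1 hybrid of C57BL/6J and CAST/EiJ, aged 36 days, with 1 library per mouse. The labels number the males separately but give both the same donor identifier, and there is no other group, so that each result is a pair of values and no test between conditions was possible. The libraries are called replicate 1 and replicate 2.

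Replicate 1 had 72021 peaks and 288172 footprints, and replicate 2 had 59150 peaks and 224558 footprints. A peak is a stretch of dense cuts, its height is the authors' signal value, and a footprint is a short protected stretch inside dense cuts. Heights were whole multiples of a step of 0.00625 in replicate 1 and 0.00688 in replicate 2 (100% of them within 0.05 of a step), and the median height over all peaks was 1.18 and 0.963. A promoter peak stood in both mice at all 6 marker genes of cortical excitatory neurons and at 1 of 6 genes of other tissues, Ckm, whose peak lay 804.5 bp and 799.5 bp downstream of its start. In whole tissue, a promoter open in fewer cells and one less open per cell cannot be told apart.

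A promoter peak, the highest peak within 1 kb of any annotated start site, was found at 82 of the 92 genes in replicate 1 and at 82 in replicate 2, the same 82 genes. The share was 89.1% in each mouse, and 63.5% of all coding genes had such a peak in replicate 1, 58.4% in replicate 2 and 57.7% in both. All 77 core genes had one in both mice, as did Rps19bp1. Among the 7 paralogs the split was 4 with a peak and 3 without. None of the 7 coding retrocopies had a peak in either mouse.

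The paralogs with a peak were Rpl36al, at 8.74 in replicate 1 and 4.58 in replicate 2, Rpl22l1 at 7.26 and 5.48, Rps27l at 4.54 and 2.15, and Rpl7l1 at 3.88 and 2.17. Rpl36al stood above its X-linked counterpart Rpl36a, at 2.76 and 2.55, in both mice, but it is divergent with Mgat2, and the height of a shared peak cannot be assigned to either gene. Rpl22l1, which can replace Rpl22 in the ribosome, also stood above Rpl22 itself, at 6.60 and 5.31, in both mice. The order of Rps27l and Rps27, at 3.82 and 3.804, changed between the mice. Rpl7, at 5.07 and 2.79, was above Rpl7l1 in both. Each of these differences is between single values per mouse and has no further replicate.

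The paralogs without a peak were Rpl3l, known from skeletal and heart muscle, and Rpl10l and Rpl39l, both known from the male germ line. Their parent genes Rpl3, at 6.48 and 7.02, Rpl10, at 3.54 and 4.40, and Rpl39, at 2.95 and 1.88, all had a peak in both mice. The nearest peak to a start of Rpl3l lay 3.26 kb away in both mice, that to Rpl39l lay 22.6 kb and 22.5 kb away, and that to Rpl10l lay 248 kb and 340 kb away. A longer list of weaker peaks held 1 within 1 kb of Rpl10l, with a height of 0.256, in replicate 1 alone. The start regions of these 3 paralogs are shown because they are the subunit-like promoters that had no peak in this tissue. Each runs 5′ to 3′ from 150 bp before to 20 bp after the annotated start in GRCm38, from chr17:24727670-24727839 on the plus strand for Rpl3l, chr12:66284382-66284551 on the minus strand for Rpl10l and chr16:10170076-10170245 on the plus strand for Rpl39l. All letters are in lower case, since no footprint lay there in either mouse.
Rpl3l: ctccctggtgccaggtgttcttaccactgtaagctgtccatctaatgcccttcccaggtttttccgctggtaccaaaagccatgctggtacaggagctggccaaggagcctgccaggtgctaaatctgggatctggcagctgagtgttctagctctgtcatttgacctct
Rpl10l: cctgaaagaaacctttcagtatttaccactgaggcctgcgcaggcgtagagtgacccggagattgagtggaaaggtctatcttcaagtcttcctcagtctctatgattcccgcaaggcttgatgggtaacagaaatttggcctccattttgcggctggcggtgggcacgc
Rpl39l: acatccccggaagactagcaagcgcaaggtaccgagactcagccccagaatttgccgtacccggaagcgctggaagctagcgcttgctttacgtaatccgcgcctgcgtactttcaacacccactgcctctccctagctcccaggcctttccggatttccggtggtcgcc

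Rpl39l held the Ets pattern CCGGAAG, which starts at positions -144 and -90, and the pyrimidine pattern CTTTC on the sense strand, which starts at -40 and -4 (a minus sign marks bases before the start). Both patterns are described below for the open promoters. Their presence in this window went along with no peak in either mouse. Rpl3l held none of the 10 patterns searched.

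The coding retrocopies without a peak were Rpl10-ps3, Rpl36-ps4, Rpl36a-ps1, Rpl9-ps1, Rpl9-ps6, Rps12-ps3 and Rps27rt. The nearest peak to any of their starts was 2.53 kb and 2.54 kb away, at Rpl36-ps4. The longer list held a peak of 0.693 centred at -414 bp from the start of Rps27rt, again in replicate 1 alone. How reads that match several near-identical copies were treated is not given in the sources used here, so the absence of peaks at retrocopies is uncertain to that extent. Among 301 further ribosomal protein pseudogenes that are not annotated as coding, 14 had a peak within 1 kb in replicate 1 (4.65%) and 12 in replicate 2 (3.99%). Over all 10142 processed pseudogenes the shares were 3.37% and 2.67%. Rps4l, the autosomal relative of Rps4x, is among these pseudogenes and had a peak of 0.557 in replicate 2 alone. The highest of these peaks, at Rpl29-ps2 (3.85 and 5.00), lay within 1 kb of the start of a coding gene.

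**Figure D1:**
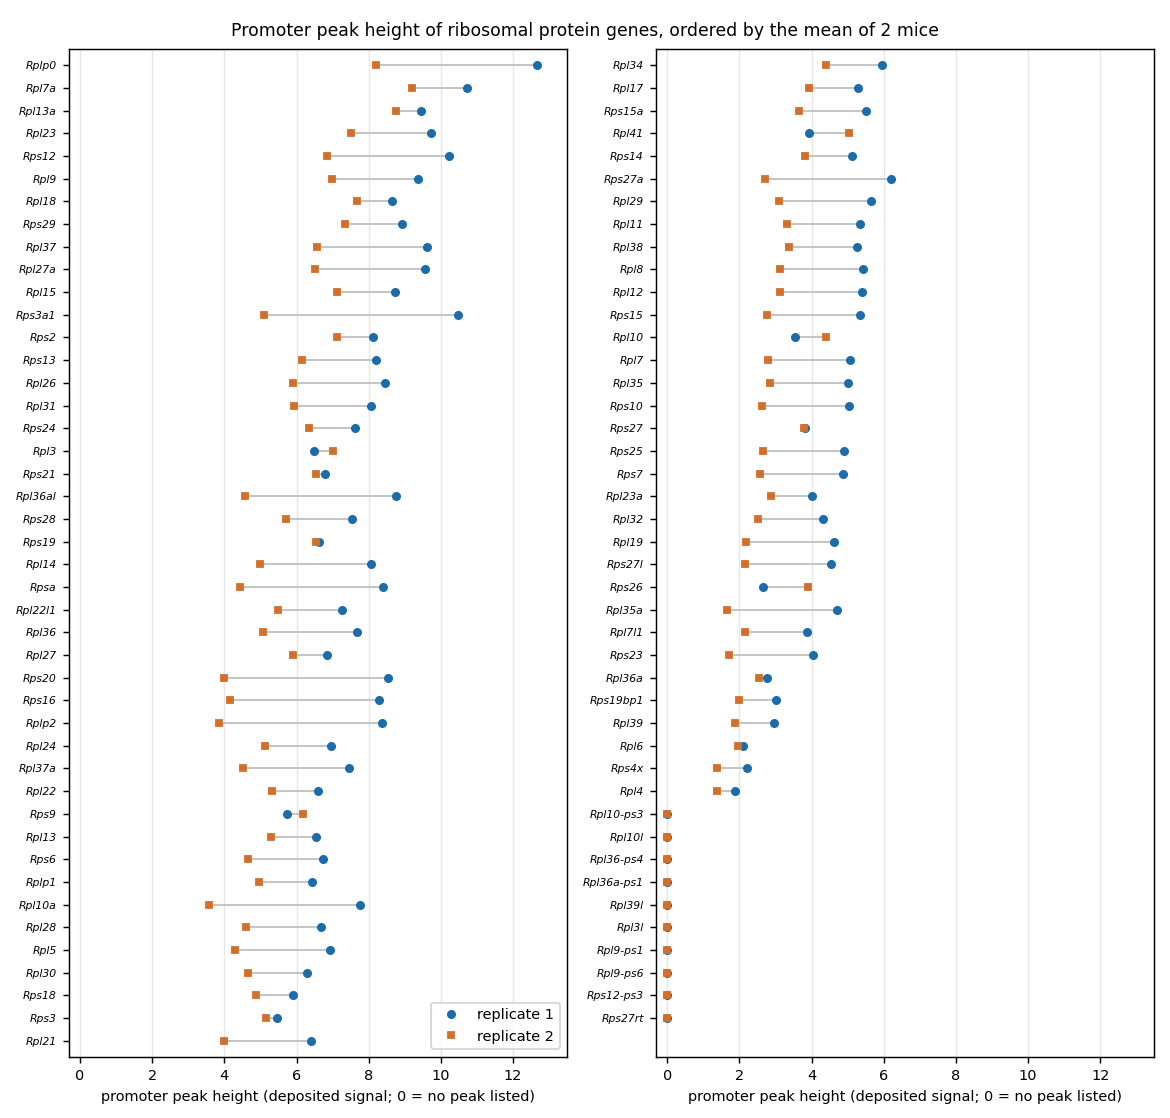
Promoter peak height (deposited signal, 0 where no peak is listed) of 87 of the 92 genes in the 2 mice, ordered by the mean; circles are replicate 1, squares are replicate 2 and a line joins the mice. The genes with a peak spread from 1.88 to 12.7 in replicate 1 and from 1.37 to 9.19 in replicate 2, and 10 genes lie at 0 in both.

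With genes without a peak counted as 0, the median promoter height of the 92 genes was 5.94 in replicate 1 and 4.08 in replicate 2, against 2.05 and 1.04 over all coding genes. Among genes with a peak in both mice the medians were 6.45 and 4.48 for the ribosomal protein genes and 4.79 and 2.69 for all coding genes. The median of 6.45 in replicate 1 equals 1032 steps, which gives a counting error of 3.11% if 1 step is 1 cut, and the median in replicate 2 equals 652 steps, with 3.92%. Of the 82 genes, 64 stood above the coding median in replicate 1 and 66 in replicate 2.

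The top 10% of coding promoters began at 7.75 in replicate 1 and 5.39 in replicate 2. It held 25 ribosomal protein genes in replicate 1 (27.2%) and 26 in replicate 2 (28.3%), where by construction 10% of all coding genes pass in each mouse. Both thresholds were passed by 17 of the genes and by 6.81% of all coding genes.

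The 10 highest by the mean of the mice were led by Rplp0, a scaffold of the ribosomal stalk, with 12.7 in replicate 1 and 8.20 in replicate 2. It ranked 76 among all coding genes in replicate 1 and 565 in replicate 2. Rpl7a followed with 10.7 and 9.19, the highest value in replicate 2, and Rpl13a with 9.45 and 8.76. Rpl23 had 9.74 and 7.51. Rps12 had 10.2 and 6.84. Rpl9, Rpl18, Rps29 and Rpl37, also among the 10, lay between 8.65 and 9.62 in replicate 1 and between 6.57 and 7.68 in replicate 2.

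The promoters of 5 of these genes are shown because they carry some of the densest cuts of the family. Capitals mark bases inside a footprint in both mice. Each runs 5′ to 3′ from 150 bp before to 20 bp after the start site nearest its peak, except for Rpl7a, which begins 96 bp before the start. It was shortened to hold at most 30 exon bases, and those within it belong to Rpl7a and its divergent neighbour Med22. In GRCm38 they are chr5:115559317-115559486 (plus strand), chr2:26910668-26910783 (plus), chr7:45128742-45128911 (minus), chr11:97782418-97782587 (minus) and chr10:23787256-23787425 (minus).
Rplp0: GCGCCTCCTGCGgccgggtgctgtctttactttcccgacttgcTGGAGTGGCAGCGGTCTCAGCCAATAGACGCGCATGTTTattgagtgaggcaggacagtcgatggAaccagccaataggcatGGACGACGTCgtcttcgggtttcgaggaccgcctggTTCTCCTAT
Rpl7a: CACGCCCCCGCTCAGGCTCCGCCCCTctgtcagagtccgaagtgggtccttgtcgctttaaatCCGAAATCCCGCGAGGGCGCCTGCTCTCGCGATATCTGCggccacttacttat
Rpl13a: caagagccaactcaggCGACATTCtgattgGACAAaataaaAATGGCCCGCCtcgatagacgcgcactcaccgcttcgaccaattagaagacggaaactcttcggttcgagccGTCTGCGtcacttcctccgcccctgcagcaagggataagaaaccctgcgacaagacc
Rpl23: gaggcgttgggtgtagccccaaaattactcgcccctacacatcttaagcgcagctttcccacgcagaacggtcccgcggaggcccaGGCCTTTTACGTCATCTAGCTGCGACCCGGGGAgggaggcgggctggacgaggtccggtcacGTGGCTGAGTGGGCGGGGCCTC
Rps12: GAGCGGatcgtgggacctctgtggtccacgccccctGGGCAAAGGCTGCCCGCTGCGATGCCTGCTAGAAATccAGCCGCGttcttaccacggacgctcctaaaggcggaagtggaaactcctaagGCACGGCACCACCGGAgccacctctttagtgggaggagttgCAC

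Of the 170 bases shown of Rplp0, 71 lay in footprints of both mice. In Rps12 the number was 68 and in Rpl23 it was 55. Rpl7a had 65 of 116 bases. Rpl13a had fewer, 31. The footprints of Rplp0 in these bases were not the same in the mice in full, since 87 bases were covered in replicate 1 and 95 in replicate 2. In Rpl7a all 65 bases covered in replicate 1 were also covered in replicate 2.

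Large-subunit and small-subunit genes overlapped over nearly their whole ranges. The 43 large-subunit genes ran from 1.88 to 10.7 in replicate 1 with a median of 6.40, and from 1.37 to 9.19 in replicate 2 with a median of 4.52. The 31 small-subunit genes ran from 2.21 to 10.5 with a median of 6.63, and from 1.38 to 8.63 with a median of 4.44. The order of the medians changed between the mice. In the top 10% were 12 and 13 large-subunit genes and 10 and 11 small-subunit genes. Of the stalk genes, Rplp2 had 8.38 and 3.84 and Rplp1 had 6.41 and 4.97, both below Rplp0.

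The 5 lowest genes with a peak in both mice were Rpl4 (1.88 and 1.37), Rps4x (2.21 and 1.38), Rpl6 (2.11 and 1.97), Rpl39 (2.95 and 1.88) and Rps19bp1 (3.02 and 1.98). The 301 and 199 steps behind Rpl4 give counting errors of 5.76% and 7.09%. The peak counted for Rpl4 had its midpoint at -464.5 bp and -404.5 bp from the start, and no peak covered an annotated start of Rpl4 in either mouse. Rpl4 is divergent with Zwilch, a mitotic checkpoint gene, and the height of a peak between divergent genes cannot be assigned to either gene. The gene also hosts 5 snoRNA genes, more than any other of the 92.

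The X-linked members, of which a male has 1 copy per cell, were Rpl10, Rpl36a, Rpl39 and Rps4x. Their median was 2.86 in replicate 1 and 2.22 in replicate 2, and 0 of 4 were in the top 10% in either mouse. Among X-linked coding genes with a peak the medians were 2.15 and 1.59, and 1 and 11 of 948 X-linked coding genes were in the top 10%, so that low heights were shared by the chromosome. Copy number moved with these heights, and its part in them was not tested. Without the X-linked members the median over the other 88 genes was 6.25 and 4.24.

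Among other gene lists, the 78 mitochondrial ribosomal protein genes, whose products serve the separate ribosome of the mitochondrion, had a peak in both mice without exception. Their medians were 5.51 in replicate 1 and 2.96 in replicate 2, against 6.48 and 4.52 for the cytosolic core. In the top 10% were 16 and 15 of them, or 20.5% and 19.2%, against 31.2% and 32.5% of the core. Proteasome subunits, a further set of housekeeping genes for a large complex, had a peak at 38 of 40 genes in each mouse, medians of 5.22 and 3.42, and 8 and 5 genes in the top 10%. By median and by share in the top 10%, the cytosolic core was thus above both lists in both mice.

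The ribosomal proteins with other symbols lay in the same range. Fau, which encodes Rps30 fused to a ubiquitin-like protein, had 10.03 and 5.99. Rack1, a signalling scaffold on the small subunit, had 5.20 and 2.73. The 16 translation factors and other mRNAs of the oligopyrimidine class all had a peak, with medians of 8.28 and 5.60, above the ribosomal core in both mice, and 9 of 16 in the top 10% in each mouse. They ran from Eif3l (3.95 and 1.74), a subunit of an initiation factor, to Eef1g (9.77 and 10.6), a subunit of the elongation factor complex.

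The 16 ribosome biogenesis genes all had a peak, with medians of 5.51 and 3.92. The highest was Nop56 (13.2 and 8.32), a snoRNP protein, and the lowest Nop2 (2.99 and 1.34), an rRNA methyltransferase. All 13 regulators of ribosomal protein genes or of their translation had a peak too, with medians of 6.53 and 4.81. Sp1, a promoter-binding factor, was highest (8.23 and 11.9) and Eif4ebp1, the translation repressor under mTOR, lowest (1.53 and 0.853).

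**Figure D2:**
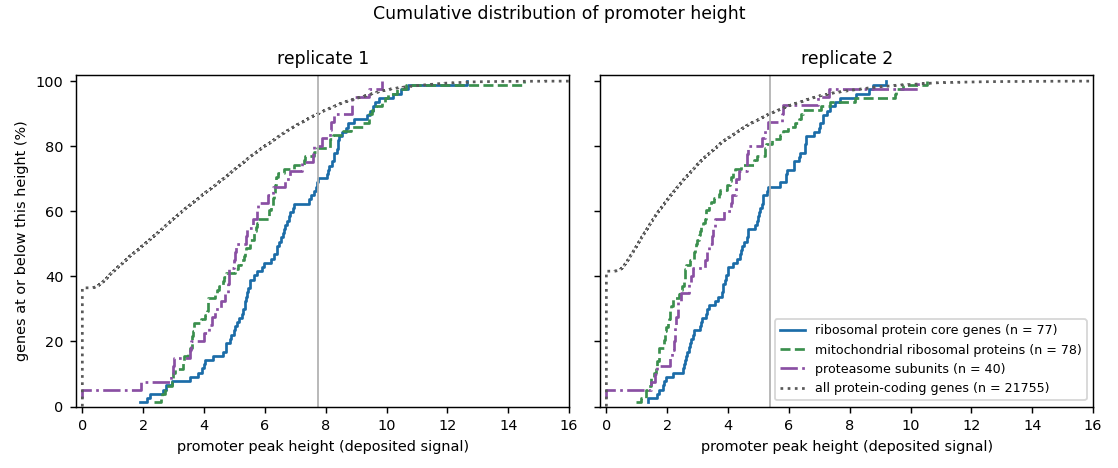
Share of genes (%) at or below each promoter height (deposited signal) in replicate 1 and replicate 2, for core ribosomal protein genes, mitochondrial ribosomal protein genes, proteasome subunits and all coding genes; the grey vertical line marks the start of the top 10% of coding promoters, 7.75 and 5.39. The core curve lies to the right of the others over most heights, but at the far right it meets them, where Rplp0 at 12.7 in replicate 1 is not the highest of the promoters shown.

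Heights were higher in replicate 1 at 75 of the 82 genes, and 91.1% of all coding genes with a peak in both mice were too. The ratio of replicate 1 to replicate 2 had a median of 1.45 over the 82 genes, with quartiles of 1.22 and 1.78, and 1.65 over 12548 coding genes, with quartiles of 1.28 and 2.13. The ratio fell with height over the other coding genes, from 1.85 at a mean height below 3.94 to 1.64 between 3.94 and 6.66 and 1.31 above 6.66. At the same heights the ribosomal protein genes had 1.75 (21 genes), 1.47 (40 genes) and 1.30 (21 genes), in each range just below the other genes. With each library divided by its median over coding promoters with a peak in both mice, 4.79 and 2.69, the median ratio became 0.813, so that the direction of the difference between the mice depends on the scale.

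The largest ratio was at Rpl35a (4.71 in replicate 1 and 1.65 in replicate 2), with 2.85. The smallest was at Rps26 (2.67 and 3.90), with 0.684, and Rpl41 (3.94 and 5.03) had 0.782. Rpl10, Rpl3 and Rps9 were also higher in replicate 2. With 1 library per mouse, a difference between animals and one between libraries cannot be told apart.

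**Figure D3:**
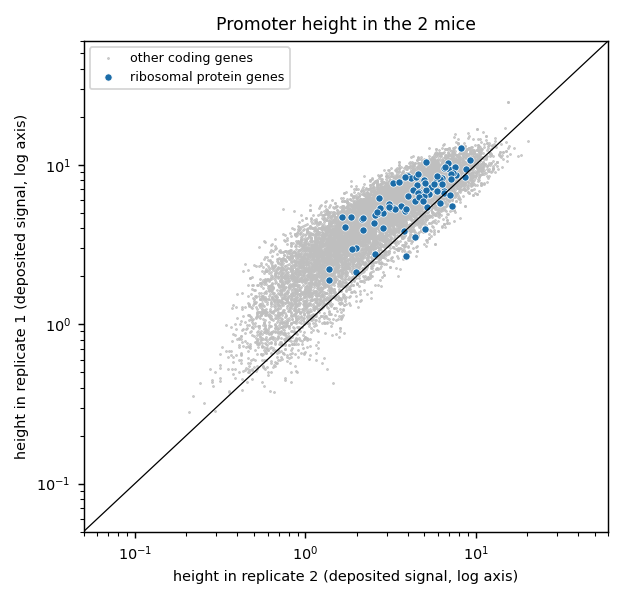
Promoter height (deposited signal, log axes) in replicate 1 against replicate 2 for genes with a peak in both mice; large points are the 82 ribosomal protein genes, small grey points the other coding genes, and the line marks equal heights. Most points lie above the line, 75 of the 82 large ones, and the points approach the line at greater heights.

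The peaks lay close to the annotated starts. The midpoint of the highest peak had a median position of -23 bp from the nearest start in replicate 1 and -27.5 bp in replicate 2. Over all coding genes with a peak the medians were -23.5 bp and -39.5 bp, so the position in replicate 1 was that of the background. At 66 of the 82 genes the midpoint was within 100 bp of a start in both mice, a count that was not made for other genes. The peak covered a start at 77 genes in replicate 1 (93.9%, against 76.7% of all coding genes with a peak) and at 74 in replicate 2 (90.2%, against 70.8%). It was the single peak within 1 kb at 58 genes (70.7%, against 47.0%) and at 57 genes (69.5%, against 54.6%). Among mitochondrial ribosomal protein genes the shares were 93.6% and 92.3% over a start and 73.1% and 71.8% for a single peak. Among proteasome subunits with a peak they were 97.4% and 89.5%, and 81.6% and 76.3%. Both traits were thus shared with these housekeeping lists. The median width was 240 bp in both mice, against 260 bp and 220 bp over all coding genes. The peaks of the mice overlapped at 81 of 82 genes (98.8%, against 92.0%). For mitochondrial ribosomal protein genes and for proteasome subunits the share was 97.4% each.

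The exceptions were few. The peak covered no start at 5 genes in replicate 1, among them, with their midpoints, Rpl7 (-348.5 bp), Rps19 (-240.5 bp), Rps14 (-65.5 bp) and Rpl4. At Rpl7 a second, slightly lower peak of 4.93 lay over a start. At Rps19 a single peak of 620 bp centred at -60.5 bp was listed in replicate 2. In that mouse the peak of Rplp1 (-118.5 bp), Rpl37 (-144.5 bp), Rps18 (-123.5 bp), Rps9 (-62.5 bp), Rpl38 (-63.5 bp), Rps19bp1 (-135.5 bp) and Rpl4 covered no start. These names other than Rpl4 and Rps19bp1 were chosen after their values were seen.

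Accessible bases, those with a deposited q-value of at most 0.001 within 1 kb of the start, had a median of 858 in replicate 1 and 580.5 in replicate 2 per ribosomal protein gene, against 575 and 267 over all coding genes. The mitochondrial ribosomal protein genes had 706.5 and 524, and the proteasome subunits 813.5 and 557. Rpl7 had the most in both mice, 1591 and 1538 bases, and it was also chosen after its value was seen.

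All 82 genes with a peak had at least 1 footprint inside it in each mouse, or 89.1% of the 92 genes, against 62.7% and 57.3% of all coding genes. Among coding genes with a peak the shares were 98.6% and 98%, so that having a footprint was near the background once a peak was present. The number ran from 1 to 10 in each mouse with a median of 4.5 in replicate 1 and 4 in replicate 2. The 5 genes with the most over both mice began with Rpl39 (9 and 10), whose peaks of 440 bp and 460 bp were wide and low. Rpl10 (6 and 8) and Rpl37 (7 and 7) followed. The other places fell among genes with 13 in sum, among them Rps12 (6 and 7) and Rpl9 (8 and 5). Over the 82 genes the mean number was 4.48 in replicate 1 and 4.61 in replicate 2, and over 12466 other coding genes it was 5.00 and 4.23, so that the order changed between the mice. Footprints covered a median of 25.3% and 31.7% of the peak, against 23.6% and 27.0%.

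Base by base, footprints were most frequent just before the start. In replicate 1 the highest share was 42.7% of the 82 genes, at -71 bp, and in replicate 2 it was 48.8%, at -20 bp. The other coding genes reached 29.4% at -18 bp and 30.04% at -14 bp. Averaged over the first 50 bp before the start, the shares were 31.0% and 38.0% for the ribosomal protein genes and 27.7% and 28.5% for the others. Over the 50 bp after the start they were 25.1% and 31.8% against 19.4% and 19.5%. The ribosomal protein genes were above the other genes in both stretches in both mice. Their peaks also covered a start more often than those of all coding genes, and the part of this in the shares was not tested. No such profile was made for mitochondrial ribosomal protein genes or proteasome subunits.

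**Figure D4:**
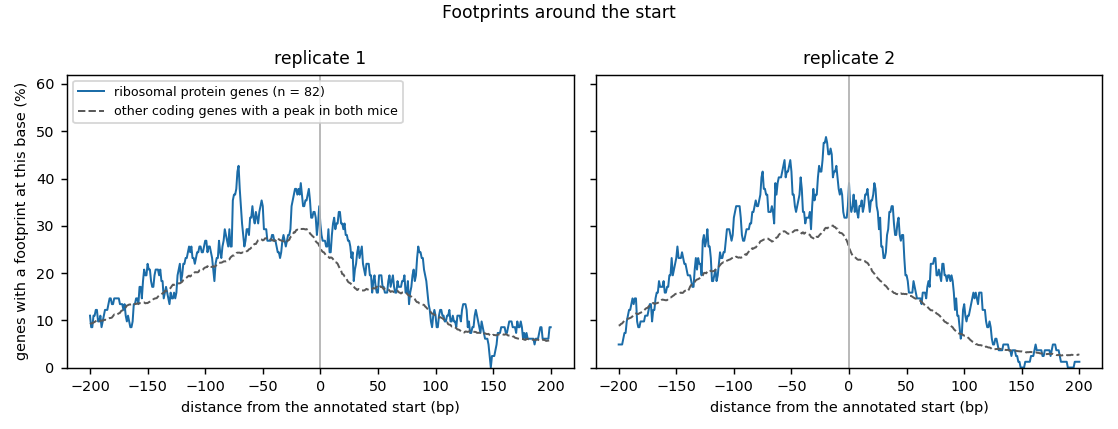
Share of genes (%) with a footprint at each base from 200 bp before to 200 bp after the annotated start, in replicate 1 and replicate 2, for the 82 ribosomal protein genes with a peak (solid) and 12466 other coding genes with a peak in both mice (dashed). The solid line peaks at 42.7% and 48.8%, the dashed line at 29.4% and 30.04%; the solid line is jagged because each gene is 1.22% of 82.

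Sequence patterns were then searched on both strands from 100 bp before to 50 bp after the start, a window of 151 bp. The Ets pattern CCGGAAG, bound by GABP and its relatives, was at 30.4% of the 92 genes and 9.25% of all coding genes. The pyrimidine pattern CTTTC was at 60.9% and 29.7%, and the longer CTCTTTC, which contains it, at 17.4% and 3.44%. A palindrome of 10 bases, a core promoter element bound by ZBTB33 and called the ZBTB33-type palindrome here, was at 7.61% and 0.575%. The YY1 pattern AAGATGG was at 10.9% and 3.84%. The Sp1 pattern GGGCGG, at 46.7% and 39.8%, and the NFY pattern CCAAT, at 19.6% and 24.8%, were closer to the background. The TATA box TATAAA was at 9.78% and 6.5%, a background that includes genes without a peak. Among genes with a peak in both mice, TATAAA was in this window at 11.0% of the ribosomal protein genes and 2.33% of the coding genes. The E-box CACGTG was at 5.43% and 4.96%, and the NRF1 palindrome at 2.17% and 1.08%. A match is a stretch of letters, and no binding was measured.

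Annotated starts lay at uneven distances from the peaks, so the search was repeated in the 201 bp around the peak midpoint of genes with a peak, taken from replicate 1 where it had one, a window added after the data were seen. There CCGGAAG was at 35.4% of the 82 genes (29 genes), against 15.2% of coding genes with a peak. Mitochondrial ribosomal protein genes had it at 30.8% and proteasome subunits at 36.8%, so the share was like that of other housekeeping complexes. The ZBTB33-type palindrome was at 9.76% (8 genes), against 0.979%, with 0 of 78 mitochondrial ribosomal protein genes and 2 of 38 proteasome subunits (5.26%). TATAAA was at 12.2% (10 genes), against 2.42%, and at 1 gene each of the other 2 lists. The YY1 pattern was at 12.2%, against 5.3%, and was more frequent in mitochondrial ribosomal protein genes (17.9%) and proteasome subunits (21.1%). The shares were lower than those of coding genes with a peak for the Sp1 pattern (56.1%, against 60.5%), NFY (26.8%, against 30%) and the E-box (6.1%, against 8.07%), and NRF1 was at 2.44%, against 1.97%. CTCTTTC was at 20.7% (17 genes), against 3.8%, with 2 mitochondrial ribosomal protein genes and 0 proteasome subunits.

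The pyrimidine patterns had an orientation. Of 83 matches to CTTTC in the 201 bp of the 82 genes, 65 were on the sense strand, the strand of the mRNA, and 18 on the other (78.3% sense, against 53.0% over all coding genes with a peak). It stood on the sense strand of 53.7% of the genes, against 19.5% of coding genes with a peak, and on the antisense strand of 22.0%, against 17.4%. In proteasome subunits 13 of 18 CTTTC matches were also sense (72.2%), and in mitochondrial ribosomal protein genes 20 of 41 (48.8%). By genes, the sense CTTTC was at 26.3% of proteasome subunits with a peak and 21.8% of mitochondrial ribosomal protein genes. CTCTTTC was sense at 16 of 18 matches, in 15 genes (18.3%, against 2.09%), and 12 of the 16 sense matches began within 30 bp of an annotated start. That last count was not made for other genes. Over both strands, the CTCTTTC matches began at a median of 3.5 bp from the start, against -42.5 bp over all coding genes with a peak. A run of at least 8 pyrimidines on the sense strand was in the 151 bp window of 77.2% of the 92 genes, against 46.9% of all coding genes, 44.9% of mitochondrial ribosomal protein genes and 37.5% of proteasome subunits. A run of at least 8 purines on the same strand was at 32.6%, against 49.8%. The annotated start itself was a pyrimidine at 40.2%, against 28.9%.

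Sense matches to CTCTTTC are shown for 5 genes from high to low promoters, because this oriented pattern was at 15 of the 82 genes, at 1 of the 78 mitochondrial ribosomal protein genes and at none of the 38 proteasome subunits. The match is in capitals, and each line is 29 bases of the mRNA strand. The positions in GRCm38 are Rpl18 chr7:45718061-45718089 (plus strand), Rpl5 chr5:107900497-107900525 (plus strand), Rpl35 chr2:39005114-39005142 (minus strand), Rpl6 chr5:121204523-121204551 (plus strand), Rps4x chrX:102189306-102189334 (minus strand).
Rpl18: ctcgcaggccgCTCTTTCcccgcccactc
Rpl5: gcctacagccaCTCTTTCtcacgtcgctt
Rpl35: cccgccctttcCTCTTTCtctcgaaccag
Rpl6: ctgccttagttCTCTTTCccgtcttgcaa
Rps4x: agaaggcgagtCTCTTTCcgttcctagcg

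The promoters with this sense pattern were lower than the rest. The median of the 15 genes was 5.35 in replicate 1 and 3.09 in replicate 2, against 6.63 and 4.87 over the other 67 genes. In the top 10% were 2 of the 15 in each mouse, against 23 and 24 of the 67. The groups overlapped, since Rpl18 at 8.65 and 7.68 is among the 15. This split was made after the heights were known and was not tested. The other patterns were split in the same way, and lower medians were not particular to CTCTTTC. The 10 genes with YY1 had medians of 5.02 in replicate 1 and 3.73 in replicate 2, against 6.62 and 4.55 without it. The 10 genes with sense NFY were higher, at 7.51 and 6.797, against 6.35 and 4.24. The 44 genes with sense CTTTC, which CTCTTTC contains, had 6.47 and 3.99, against 6.45 and 4.76. For CTTTC the direction thus changed between the mice. Only 1 of the 18 matches to CTCTTTC lay in a footprint in replicate 1, and 1 in replicate 2, a share of 5.56% each, against 17.1% and 15.9% of the matches at all coding genes with a peak.

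The ZBTB33-type palindrome was in a footprint at 7 of 8 genes in replicate 1 (87.5%) and at 5 of 8 in replicate 2 (62.5%). Over all coding genes with a peak, 56.9% and 62.5% of matches were, so the share in replicate 2 equalled the background. The palindrome is shown, in capitals, for 6 of the 8 genes. Among patterns in at least 5 genes of the family, it was the one most often under a footprint in both mice. The match at Rps7, 55 bp after the start, was in no footprint, and those at Rpl10a and Rpl12 were in one in replicate 1 alone. Each line has 30 bases, and the positions in GRCm38 are Rpl26 chr11:68901530-68901559 (plus strand), Rps28 chr17:33824544-33824573 (minus strand), Rps6 chr4:86857399-86857428 (minus strand), Rpl10a chr17:28328524-28328553 (plus strand), Rpl12 chr2:32961648-32961677 (plus strand), Rps7 chr12:28635879-28635908 (minus strand).
Rpl26: gctccgagacTCTCGCGAGAtctcgcggca
Rps28: ccgcgtgcggTCTCGCGAGAgcgaaagtga
Rps6: cgccggctgtTCTCGCGAGAacttagagcg
Rpl10a: aacgggcaacTCTCGCGAGAacgcgggctc
Rpl12: ggccagcggtTCTCGCGAGAgctgagcttt
Rps7: tatgagccgtTCTCGCGAGAgccgtccctc

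These 8 promoters had median heights of 7.13 and 4.29, against 6.41 and 4.48 for the 74 without the palindrome, and the direction changed between the mice.

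The Ets pattern lay in a footprint at 16 of 34 matches in replicate 1 and 14 in replicate 2 (47.1% and 41.2%, against 42.2% and 36.1% of matches over all coding genes with a peak). Of its 34 matches, 23 were on the sense strand, in 24.4% of the genes against 8.79% of coding genes with a peak, and the antisense strand had it in 12.2% against 7.69%. The Sp1 pattern was in a footprint at 38 and 50 of 64 matches (59.4% and 78.1%, against 53.4% and 55.2%). The CTTTC pattern was under a footprint at 20.5% and 28.9% of its matches, against 17.1% and 17.2%.

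In the 151 bp window, 17 of the 82 genes with a peak had the Ets pattern inside a footprint of at least 1 mouse (20.7%, against 8.09% of coding genes with a peak in both mice). Mitochondrial ribosomal protein genes had it at 25.6%. For CTTTC the shares of the 82 genes and of coding genes with a peak were 20.7% and 6.96%, for the ZBTB33-type palindrome 8.54% and 0.757%, and for TATAAA 7.32% and 0.829%. For CTCTTTC they were 2.44% and 0.606%, and for YY1 6.1% and 1.89%, where mitochondrial ribosomal protein genes had YY1 at 8.97%. The Sp1 pattern, at 45.1% and 43.5%, was near the background. NFY at 8.54% and 10.6%, the E-box at 2.44% and 3.59% and NRF1 at 2.44% and 1.72% were close to it or below.

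The TATAAA pattern was at 10 genes with 12 matches, 6 of them sense (50%, against 68.5% over all coding genes with a peak). On the sense strand it was at 7.32% of the genes, against 1.74%. Over both strands, the matches began at a median of 20 bp after the annotated start, against -30 bp over all coding genes with a peak. Of the sense matches, 4 are shown, in capitals, because the 3 highest lay in a footprint of both mice and yet after the annotated start. They are Rplp0 chr5:115559472-115559501 (plus strand), Rps2 chr17:24720068-24720097 (plus strand), Rps28 chr17:33824508-33824537 (minus strand), Rpl36a chrX:134585645-134585674 (plus strand) in GRCm38, each 30 bases.
Rplp0: gcctggttctccTATAAAaggcacacgcgg
Rps2: ttcttggagcacTATAAAttgtcccttccg
Rps28: gtcagagccgacTATAAAaggcatcccctg
Rpl36a: ccaggcaccgccTATAAActtccgttgcgg

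The match began 17 bp after the annotated start at Rplp0, 17 bp after it at Rps2 and 37 bp after it at Rps28. At Rpl36a it began at -32 bp and lay in no footprint. No transcription starts were measured, and positions in the text are relative to the annotation.

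**Figure D5:**
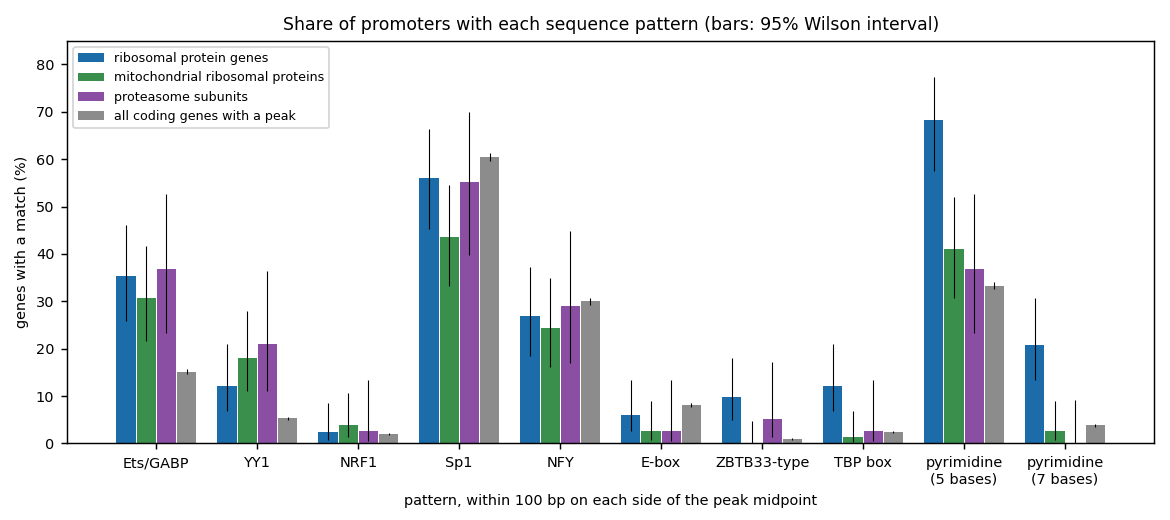
Share of genes (%) with a match to each of 10 sequence patterns on either strand within 100 bp of the peak midpoint, for 82 ribosomal protein genes, 78 mitochondrial ribosomal protein genes, 38 proteasome subunits and 13987 coding genes with a peak; error bars are 95% Wilson intervals, which cover counting of genes only, and the TBP box is the TATA box of the text. The family is at 68.3% for the 5-base and 20.7% for the 7-base pyrimidine pattern, against 33.3% and 3.8% of coding genes, while the Ets bar of 35.4% is level with those of the other 2 complexes.

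The family was rich in snoRNA hosts. An annotated snoRNA gene lay inside 30 of the 92 genes (32.6%, against 1.19% of all coding genes), all of them core genes, with 58 snoRNA genes in sum. Rpl4 held 5 and Rpl13a held 4. The 30 host promoters had medians of 6.73 and 4.55, and the 47 other core promoters 6.21 and 4.52. In the top 10% were 14 and 11 of the 30 hosts (46.7% and 36.7%) and 10 and 14 of the 47 others (21.3% and 29.8%). The difference in share was smaller in replicate 2. The hosts' own range was wide, from Rpl4 at 1.88 and 1.37 to Rpl7a at 10.7 and 9.19.

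A coding gene on the other strand began within 1 kb at 14 of the genes (15.2%, against 10% of all coding genes), 13 of them core genes. At such promoters the peak may be counted for both genes. The 13 core genes had medians of 5.91 and 3.80, and the 64 without such a partner 6.57 and 4.56. Among the 13 were Rpl7a with Med22, Rpl9 with Lias, Rpl18 with Sphk2 and Rpl35a with Iqcg. Mitochondrial ribosomal protein genes had a divergent partner more often, at 29 of 78 (37.2%).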

How the data were processed

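DNase-seq of left cerebral cortex from 2 male mice, 1 library each, was deposited as 2 peak lists, 1 list of cut-rate q-values and 1 of footprints per library on mm10. The file lists deposited with them name the filtered reads of that library alone as input, so nothing was pooled. Which aligner and callers were used is not given in the sources used here. As deposited, the signal of a peak is its height, whose normalization is not stated. The deposited q-value list holds only bases at up to 0.05 and gave the accessible bases. The deposited footprint score was constant and not used.

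The shorter peak list was used. Genes came from GENCODE M21, sequence from GRCm38.p6. A gene's height is that of the highest peak within 1 kb of any of its start sites, or 0. A pattern counted as inside a footprint when at least 50% of it was. Python 3.11.15, NumPy 2.4.6, pandas 2.3.3, SciPy 1.17.1, pysam 0.24.0 and matplotlib 3.10.9 were used, and the scripts were tested on simulated data. With 1 group of 2 mice no test was made, and intervals cover counting error only. The intervals treat genes as draws, although the gene lists were taken whole.

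The members and gene lists were chosen with earlier results of these data known. Genes named are the 10 highest, the 5 lowest with a peak, those without a peak, the 3 largest ratios each way, the 5 with most footprints, X-linked, stalk and paralog genes, and the ends of the other lists; a few genes of this rule are not reported here, and exceptions are marked where they occur or belong to a sequence pattern shown. Alternatives were the longer peak list, windows of 500 bp and 2500 bp, the higher 50% of the peaks, the start of the gene record alone, subsets of the genes, a scaling of heights, looser q-values and footprint overlaps, other windows for patterns, and leaving out each mouse.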

Additional observations from a re-analysis of the deposited data

How the results depend on the processing

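Beside leaving out a mouse, 72 values were recomputed, of which 53 were labelled the same, 18 moved and 1 turned its direction. The limit was the spread of the mice, the counting interval for patterns, and a fixed fold range for the top 10% and the ratio. The spread was 0 for the share with a peak, so any change counted as moved. For the median height it was 1.31, so the 53 are no measure of stability. The share of genes with a promoter peak, 89.1% with either mouse left out, was 90.2% with the longer peak list, 84.8% with the start of the gene record alone, where Rps2, Rps10, Rps14 and Rpl17 lost their peak, 100% for core genes and 88.6% without X-linked genes. The share with a footprint, also 89.1% without either mouse, was 89.7%, 84.8%, 100% and 88.6% in the same order. Shares over all coding genes were not made for the longer list or the start of the gene record. Leaving out a mouse says nothing of stability with 2 mice and gave a median height between 4.08 and 5.94, between 25 and 26 genes in the top 10%, a midpoint at -27.5 to -23 bp and 580.5 to 858 accessible bases. The midpoint was at -5.25 bp from the start of the gene record, and accessible bases were 917 at q-values up to 0.05, as the looser limit adds bases. The ratio between the mice reversed to 0.813 when scaled. Counted only inside a footprint, shares of the 92 genes with a pattern were 18.5% for Ets, 5.43% for YY1 and 7.61% for NFY. They were 2.17% for the E-box, 18.5% for CTTTC and 2.17% for CTCTTTC. Over all coding genes they were 4.68%, 1.09%, 6.22%, 2.13%, 4.16% and 0.354% in the same order. In the whole peak, Sp1 was at 61.0% and CTTTC at 74.4%, against 67.7% and 42.4% of coding genes with a peak. Those windows differ in length by construction. The window around the peak midpoint was chosen after seeing the data. No paired analysis was possible because there is only 1 group. Peaks under the list's threshold are not seen, and 1 library per mouse gives no error within a mouse.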
